A study of Homo sapiens with 6 samples.

Results

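The 3 AZA-treated samples of a pooled RNA interference screen in SKK-1 cells are described here, of 6 samples in all, and they were taken by their titles. SKK-1 is a human myeloid leukemia cell line. The pool was designed with 7296 shRNAs (called hairpins below) against 912 genes of chromatin biology, 8 per gene. It was delivered by lentivirus at a low titre, in a vector with a chromatin opening element and a viral promoter. In each of 3 separate transductions, infected cells were selected with puromycin and divided. The treated part received 0.25 µM of azacitidine (AZA) every 2 days, the other part stayed untreated, and cells were collected for genomic DNA after 14 days. Both groups therefore shared the line, the vector, the selection and, within a replicate, the transduction. Each sample is a mixed population and not a clone. Counts of integrated hairpins do not show how far a gene was knocked down.

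A hairpin of this design is processed like a microRNA into a guide strand that pairs with an mRNA and lowers its level. Because it sits in the genome of a cell and its descendants, its share of the reads follows the share of cells that carry it. In such pools, hairpins against genes that cells need for growth are usually lost over time. AZA enters both RNA and DNA in place of cytidine, and in DNA it traps DNA methyltransferases. No counts of the pool before growth were used here. The abundance at harvest therefore joins the share with which a hairpin entered the cells, the amplification of its sequence and the growth of its cells under drug, and these cannot be told apart in the 3 libraries.

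The libraries AZA 1, 2 and 3 held 18542022, 20309292 and 22587662 counts. Together they listed 7289 hairpins, of which 7227 were above 0 in every library and 62 were at 0 in 1 or 2 of them. A count of 0 allows up to 0.162, 0.148 and 0.133 CPM, the count relative to the library total, which covers counting error only. The median hairpin had 2036, 2233 and 2512 counts. The 1% most abundant hairpins took 5.09% to 5.16% of the counts, and 23.4% to 23.7% of the hairpins sufficed for 50% of them. The value of a hairpin is log2(CPM + 1). That of a gene averages its hairpins within a library, and then the 3 libraries. In all, 903 genes had 8 hairpins, 8 had 7 and MYB had 9. Ranks are given over the 904 genes outside the Y chromosome. Errors written with ± are SDs over the libraries (n = 3).

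Guide strands were held for 1988 of the listed hairpins. Those of CREBBP are shown because this gene stood among the highest while its hairpins spread widely. They run from the most to the least abundant, 5′ to 3′, with G and C in capitals.
CREBBP.2034: taaGtGataatattCatCCCtG
CREBBP.1135: tattCttGatatCtGtaGGGaa
CREBBP.3254: ttaaCttCtaCtttCaCttCaG
CREBBP.4851: tttCttGttGttCttCttCttG
CREBBP.8490: ttaaaGaaCaGaataCatGtta
CREBBP.6348: tttGaGaatGttCaGCaCCtGC
CREBBP.9964: taCaGCatGaGaCaCaGCGttG
CREBBP.9156: tttGtGaaCttGtCtCaCCCaC
The positions are those of the target site on GRCh38, from a match to GENCODE 44 transcripts, and all CREBBP sites lie on the minus strand. The coding ones were chr16:3810629-3810650 (CREBBP.1135), chr16:3767791-3767812 (CREBBP.3254), chr16:3731890-3731911 (CREBBP.4851) and chr16:3728774-3728795 (CREBBP.6348), and CREBBP.2034 crosses a junction of coding exons within chr16:3778165-3778703. The remaining sites lie in the 3′ UTR, at chr16:3726632-3726653 (CREBBP.8490), chr16:3725158-3725179 (CREBBP.9964) and chr16:3725966-3725987 (CREBBP.9156).

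ARID1A, the lowest member of the SWI/SNF list below, is shown as the counterpart, in the same order and notation.
ARID1A.2704: tGtGtGtatCtGtCCtCCGGaa
ARID1A.6158: taGtGCtataCaaCttCtCCaG
ARID1A.3306: ttGttGttCattttGGtGGCtG
ARID1A.3561: ttGttGaCCtGaGtCaatCCaC
ARID1A.2622: ttCCtCtGCatataaCCtCGat
ARID1A.2293: tattGaaCCaGataGatCaGGC
ARID1A.3531: ttCaCaGaCaCataGaGGCGat
ARID1A.2176: tGaatCttGaGataGCtCCtGC
All ARID1A sites lie in coding sequence on the plus strand. Those within an exon were chr1:26762228-26762249 (ARID1A.2704), chr1:26780328-26780349 (ARID1A.6158), chr1:26766508-26766529 (ARID1A.3306) and chr1:26767956-26767977 (ARID1A.3531), and the other ones cross exon junctions. The ARID1A guides have 9 to 11 G or C bases of 22, and the CREBBP guides have 5 to 11.

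A last set holds single hairpins at the ends of the range. NAA15.2439 was the most abundant hairpin outside the Y chromosome, and NAA15.3422 is a further abundant one of that gene. CDK17.1342 and CDK17.1341 have target sites 1 base apart. ECE2.1559 and ELP4.1333 were among the 5 scarcest hairpins, and MYB.721 was the scarcest of MYB.
NAA15.2439: tttaataCtGttCtaaCtGtat
NAA15.3422: tttCttataattttGCttGGta
CDK17.1342: tttaataGtGaaaCttCtCtta
CDK17.1341: ttaataGtGaaaCttCtCttat
MYB.721: taGCattatCaGttCGtCCaGG
ECE2.1559: ttaGttGGaaGGtaGtaGGCat
ELP4.1333: taGaGtGtCataGaattCtGCa
The sites on the plus strand were chr4:139384859-139384880 (NAA15.2439, coding), chr4:139388649-139388670 (NAA15.3422, 3′ UTR), chr3:184290583-184290604 (ECE2.1559, coding) and chr11:31783547-31783568 (ELP4.1333, 3′ UTR). MYB.721 crosses a junction of coding exons within chr6:135190340-135192337 on the plus strand. The CDK17 pair does so on the minus strand, CDK17.1342 within chr12:96297709-96298877.

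The median gene had a value of 6.67, and values had an SD of 0.59 over genes. The middle 50% of genes lay between 6.27 and 7.03. A gene was called higher or lower where its difference from the median gene of the same library departed from 0 over the 3 libraries (limma, two-sided, Benjamini-Hochberg adjusted p under 0.05 over 912 genes). This called 197 genes (21.6%) higher and 224 genes (24.6%) lower. A call says that the mean over the hairpins of a gene was reproducibly above or below the value of the median gene. A few hairpins can set that mean, so a call does not cover each hairpin of a gene. The split depended on the reference. Centred on genes of germ cells and other tissues, 0.14 above the median gene, 122 genes were called higher and 279 lower. Without AZA 3, 126 were called higher. The extremes below were chosen by their mean, so their p-values describe the choice and add no support to it.

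The 10 highest genes lay between 7.87 and 8.44. TP53BP1, an adaptor of DNA double-strand break repair, led with 8.15, 8.60 and 8.56 in AZA 1, 2 and 3. This was 3.36-fold the median gene (log2 difference 1.75, SE 0.16, limma adjusted p = 7.23e-06). CREBBP, the acetyltransferase and coactivator CBP, followed with 8.44, 8.41 and 8.44. Its SD of 0.018 was the smallest of the 10, and its log2 difference from the median gene was 1.74 (SE 0.15, limma adjusted p = 5.33e-06). CREBBP was the higher of both genes in AZA 1 and the lower in AZA 2 and 3.

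ATXN7, a subunit of the deubiquitinating module of the SAGA coactivator complex, had gene values of 8.16, 8.05 and 7.99. CDK17, a kinase related to the cyclin-dependent kinases, had 8.10, 8.08 and 7.98. RFWD2, a ubiquitin ligase now named COP1, had 8.08, 8.10 and 7.93. The ranges of these genes overlapped with each other and with that of NAA15, which anchors the acetyltransferase NatA at the ribosome and had 7.98, 7.93 and 8.16. Their means of 8.07, 8.05, 8.04 and 8.02 therefore set no order.

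MACROD2, an ADP-ribose hydrolase, had gene values of 8.00, 7.78 and 8.00. CHRAC1, a histone-fold subunit of the chromatin accessibility complex, had 7.65, 8.16 and 7.96. RAG2, part of the recombinase that assembles antigen receptor genes, had 7.84, 7.80 and 8.04. ESCO1, an acetyltransferase of cohesin, had 7.82, 7.70 and 8.10, and these last genes overlapped too. Over the 10 genes the SD between libraries was 0.018 to 0.25, with a median of 0.12, against 0.23 for the median of all genes.

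The 10 lowest genes lay between 4.40 and 5.09. RPA1, the large subunit of the single-stranded DNA-binding protein RPA, was lowest with 4.11, 5.03 and 4.06. Its mean was 0.205-fold the median gene (log2 difference -2.29, SE 0.19, limma adjusted p = 5.33e-06). KAT8, an acetyltransferase of histone H4, had 5.41, 3.91 and 3.94, with AZA 1 far above the others. RUVBL1, an ATPase of the INO80, SRCAP and TIP60 complexes, had 5.17, 4.10 and 4.29. The libraries of these 3 genes overlapped.

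SF3B1, a core splicing factor, had gene values of 4.44, 3.96 and 5.63, highest in AZA 3. BOP1, which acts in maturation of the large ribosomal subunit, had 5.75, 4.94 and 3.73, the widest spread of the 10. SNRNP200, a helicase of the spliceosome, had 5.72, 5.47 and 4.09, lowest in AZA 3. A single library thus weighed on several of these means, and it was not the same library each time.

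PRMT1, a major arginine methyltransferase, had gene values of 5.16, 5.18 and 4.56. MYBL2, a transcription factor of cell cycle genes, had 4.60, 4.93 and 5.12. MYB, a transcription factor that immature blood cells depend on, had 4.84, 4.74 and 5.53. SMYD1, a methyltransferase known from heart and skeletal muscle, had 4.75, 4.37 and 5.46, and it was the gene among the lowest that came from the list of germ cells and other tissues. The SD between libraries was 0.27 to 1.02 over the 10 lowest genes, with a median of 0.56. The limma adjusted p was 5.33e-06 to 9.88e-05 for the 10 highest and 5.33e-06 to 0.000345 for the 10 lowest genes.

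**Figure D1:**
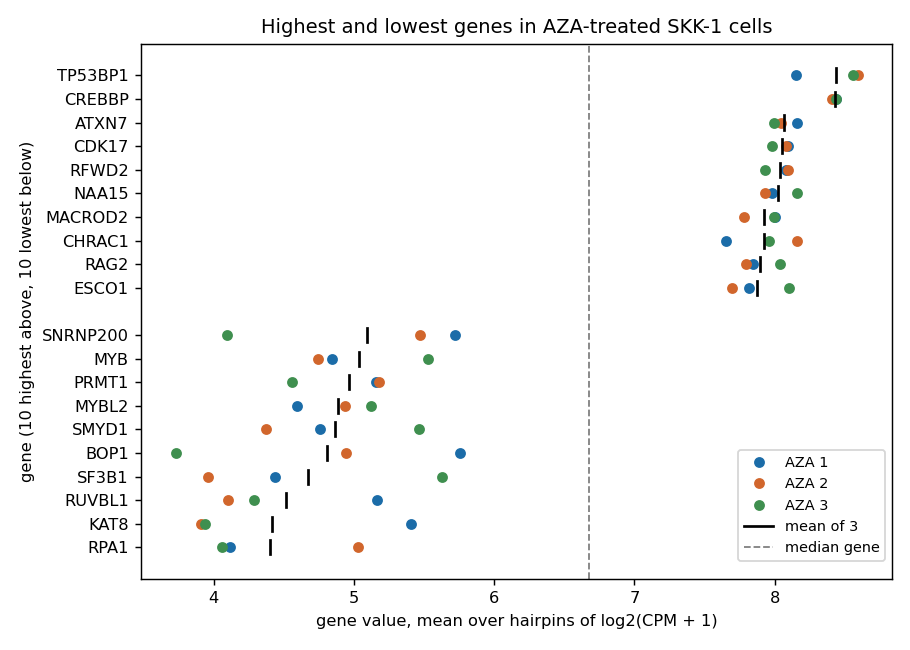
Gene values of the 10 highest and 10 lowest genes in the 3 AZA libraries, in log2(CPM + 1) on the horizontal axis. Points are libraries, black bars are means and the dashed line is the median gene at 6.67. The means of the highest genes lie between 7.87 and 8.44 with tight points, and those of the lowest between 4.40 and 5.09 with scattered points.

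Genes picked on a pair of libraries were also looked up in the library left out, which the pick had not used. The 10 highest genes were all above the median gene in the library left out, by a median log2 difference of 1.32, 1.32 and 1.31 (AZA 1, 2 and 3 left out). The 10 lowest were all below it, with a median log2 difference of -1.43, -1.57 and -1.22. Of the 10 highest, 7, 6 and 8 were in the top 10 of the left-out library, and of the 10 lowest, 3, 2 and 3 were in its bottom 10. The direction held at both ends, while fewer places in the order held at the lower end. All libraries derive from the same pool and share its guides, so a kept direction cannot be assigned to the knockdowns. ATXN7, CDK17, CREBBP, NAA15 and TP53BP1 were in the top 10 of every library, and 0 genes were in the bottom 10 of every library. With 50 genes at each end, 22 were shared by all libraries at the top and 10 at the bottom.

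Hairpin values varied in similar measure between hairpins of the same gene and between libraries of the same hairpin. The SD over the hairpins of a gene had a median of 0.88, with 0.56 and 1.39 as 10th and 90th percentiles. Of the total variance of hairpin values, 12.2% lay between genes, 45.4% between hairpins of the same gene and 42.4% between libraries of the same hairpin. With the libraries averaged, the gene accounted for 17.0% of the variance of hairpins. Hairpins of one gene share their target and are not replicates.

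TP53BP1 had all 8 hairpins above the median hairpin of 6.70, from TP53BP1.1794 with 745, 790.3 and 843 CPM down to TP53BP1.2107 with 81.5, 145 and 113 CPM. CREBBP was split. CREBBP.2034 had 745, 938 and 776 CPM, CREBBP.1135 had 932, 709 and 638 CPM and CREBBP.3254 had 500.1, 658 and 823 CPM. CREBBP.4851 had 728, 606 and 576 CPM, and these 4 hairpins were the highest of the gene in every library. At the other end, CREBBP.9964 had 139, 108 and 50.6 CPM and CREBBP.9156 had 83.9, 58.9 and 147 CPM, with means of 6.53 and 6.51 just below the median hairpin. This lower pair carries 11 and 10 G or C bases in the guide, against 7 in each of the upper 4. The middle hairpins did not follow that order, as CREBBP.6348 with 10 had a mean of 8.10 and CREBBP.8490 with 5 had 8.42. ATXN7 had 7 of 8 hairpins above the median, with ATXN7.3920 at 542, 545 and 567 CPM as its highest and ATXN7.3963 at 82.6, 98.9 and 132 CPM as its lowest.

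NAA15 rested on fewer hairpins. NAA15.2439 had 1575, 1567 and 1245 CPM, NAA15.1242 had 789.7, 769 and 678 CPM and NAA15.3422 had 745, 626 and 513 CPM. Its remaining hairpins had means between 6.38 and 7.47 on the log2 scale, near the median hairpin, and 2 of the 8 were below it. The SD over the hairpins of NAA15 was 1.54, against 0.95 for TP53BP1.

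At the lower end the hairpins of a gene were also unequal. RPA1.2500 had 84.7, 107 and 181 CPM and a mean above the median hairpin, while RPA1.912 had 7.66, 12.2 and 16.4 CPM. RPA1.913 had 0.162, 110.3 and 1.51 CPM, so that AZA 2 alone held it at a level near the median hairpin. RPA1.912 and RPA1.913 target sites 1 base apart. KAT8.1440 had 199, 203 and 129 CPM, whereas KAT8.275 had 29.6 CPM in AZA 1 and 0 counts in AZA 2 and 3. RUVBL1 had 7 of 8 hairpins below the median, from RUVBL1.905 with 250.4, 8.37 and 81.6 CPM to RUVBL1.1337 with 17.9, 0.837 and 4.56 CPM, and RUVBL1.485 with 80.1, 134 and 139.9 CPM above it.

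MYB had all 9 hairpins below the median hairpin. They ranged from MYB.1896 with 131, 50.03 and 149.7 CPM to MYB.721 with 26.4, 1.43 and 0 CPM. The latter carries no Entrez identifier in the files, and without it MYB lay closer to the median gene, with a log2 difference of -1.27 in place of -1.65, and was still called lower. SNRNP200, the last of the 10 lowest, had -1.60 and DDX47, the next gene, -1.54, so MYB is among the 10 lowest only with this hairpin. MYBL2, PRMT1 and BOP1 had all 8 hairpins below the median hairpin. SMYD1 was the exception among the lowest genes, with the largest SD over hairpins of all 904 genes (2.90). SMYD1.2574 had 167, 352 and 291 CPM, SMYD1.4280 had 189, 168 and 171 CPM and SMYD1.2527 had 113, 131 and 180.3 CPM, all above the median hairpin on average. The 3 scarcest, SMYD1.1440, SMYD1.2271 and SMYD1.2277, were each at 0 counts in at least 1 library, and 4 of the 7 hairpins lay below the median.

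The most abundant hairpins outside the Y chromosome were NAA15.2439 (10.51), ING1.1659 (10.04), MORF4L2.673 (9.96), ASH2L.389 (9.85) and CREBBP.2034 (9.67), as means on the log2 scale. ING1 reads histone H3 methylated at lysine 4, MORF4L2 belongs to the TIP60 complex and ASH2L is a core subunit of the H3K4 methyltransferases. ING1.1659 had 892, 1217 and 1069.8 CPM, MORF4L2.673 had 983, 889 and 1138 CPM and ASH2L.389 had 936, 972 and 852 CPM. All 5 hairpins had an SD of at most 0.23 between libraries.

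The scarcest hairpins were PCGF2.2444, ECE2.1559, TADA3.940, ELP4.1333 and KAT8.278. PCGF2.2444 had 0, 0 and 4 counts, ECE2.1559 had 0, 24 and 0 counts and TADA3.940 had 0, 1 and 25 counts. ELP4.1333 had 0, 30 and 0 counts and KAT8.278 had 49, 0 and 0 counts. Every one of them was at 0 in at least 1 library, but the library that still held it differed.

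Other hairpins were abundant in one library and nearly absent from another. DDX27.1323 had 8.41, 649.8 and 0 CPM, the widest log2 range (9.35) among hairpins above 100 CPM in any library. UBR4.3138 had 13.5, 162 and 0 CPM and SCML2.929 had 257, 0.640 and 65.3 CPM. SAP130.204 had 182, 0.197 and 30.9 CPM and NEK9.1821 had 0.162, 2.51 and 155 CPM. The high library was AZA 1, 2 or 3 in different hairpins. Whether such a hairpin was missing from the start or lost during growth cannot be told apart in the AZA libraries alone. Untreated counts of these hairpins, from the same transductions, are not used here.

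Single hairpins were also tested on their counts against the median hairpin of the library (edgeR quasi-likelihood test, Benjamini-Hochberg over 7289 hairpins). This called 1426 hairpins (19.6%) higher and 0 hairpins (0%) lower, with 1820 and 237 at an unadjusted p under 0.05. The limma test on log2(CPM + 1) called 504 higher and 333 lower. The edgeR test did not call even hairpins near absence. PCGF2.2444, with 0, 0 and 4 counts, had an edgeR adjusted p of 0.753 and a limma adjusted p of 0.00551. The edgeR result of 0 lower is therefore no count of scarce hairpins. How many single hairpins were scarcer than the median one is not settled by these tests, and single scarce hairpins are given as values. NAA15.2439 was called higher by both (edgeR adjusted p = 2.09e-12, limma adjusted p = 0.0232), as were the 5 most abundant CREBBP hairpins.

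Over the 903 genes with 8 hairpins, 17 had none and 25 had all 8 below the median hairpin, and the most common counts were 3 and 4 of 8 (170 and 168 genes). Counting every gene, 85 had 7 or more hairpins above the median hairpin and 96 had 7 or more below it. Of the 10 highest genes, 7 had at least 7 hairpins above, and of the 10 lowest, 9 had at least 7 below. Those counts share their values with the gene means that chose the genes.

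The number in a hairpin's name gives the place of its target site, and neighbouring sites share most of their guide. Hairpins of a gene whose sites lay 1 base apart had values that correlated at 0.64 (350 pairs), and those 2 to 7 bases apart at 0.54 (459 pairs). Sites 8 to 21 bases apart, which still overlap, correlated at 0.14 (349 pairs), and sites further apart at 0.16 (24330 pairs). CDK17.1342 with 521, 371 and 514 CPM and CDK17.1341 with 293, 399 and 488 CPM were such neighbours, with the shifted guides shown above. Hairpins of different genes with the same guide bases 2 to 8 correlated at 0.33 (802 pairs). The pairs come from the same libraries, and a hairpin can occur in several of them.

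Between libraries, gene values correlated at 0.76, 0.78 and 0.76 (Pearson, over 912 genes) and hairpin values at 0.58, 0.58 and 0.57 (over 7289 hairpins), for AZA 1 with 2, 1 with 3 and 2 with 3. The points share the pool from which all libraries derive. Agreement grew with abundance. The median SD of a gene over the libraries was 0.43 in the lowest 10% of genes and 0.14 in the highest 10%. For hairpins, the median log2 range over the libraries was 2.51 in the lowest 10% and 0.60 in the highest 10%. In all, 46.5% of hairpins kept within a log2 range of 1, and 2.66% spanned more than 4. Of the 62 hairpins at 0 in some library, 51 had more than 10 CPM in another.

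**Figure D2:**
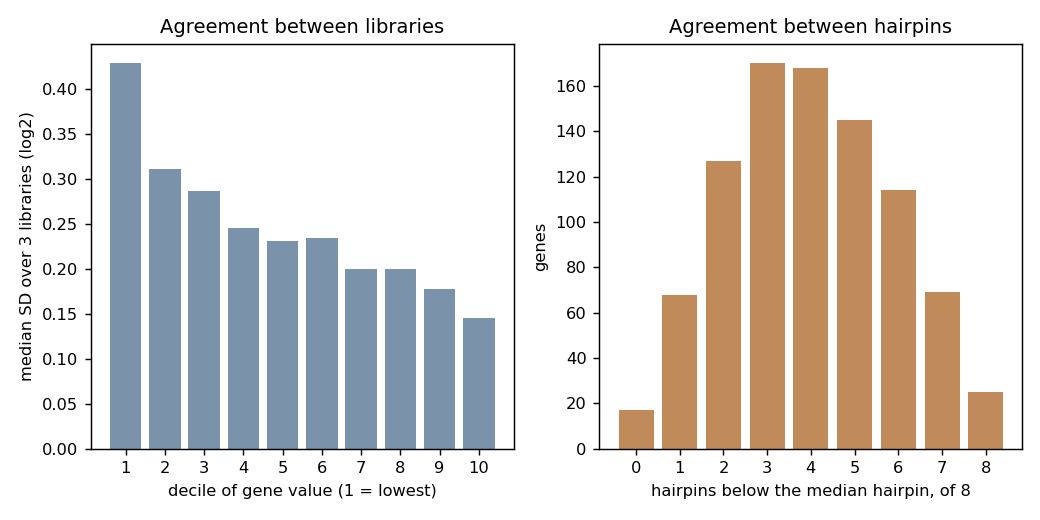
Left, median SD over the 3 AZA libraries of genes in each decile of gene value, in log2 units, from 0.43 in decile 1 to 0.14 in decile 10. Right, number of genes by how many of their 8 hairpins lay below the median hairpin, with a peak at 3 and 4 of 8 and 17 and 25 genes at the ends.

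The genes were then described by 22 lists of shared function, beside all 912 genes with a median of 6.67. Splicing genes, which remove introns from pre-mRNA, had the lowest median, 5.82 (16 genes). None was called higher and 12 (75%) were called lower. Shares in brackets after a count are of the list, and over all genes they were 21.6% higher and 24.6% lower. Next to SF3B1 and SNRNP200, the lowest were the spliceosomal helicases DDX23 (5.56 ± 0.65) and DDX46 (5.60 ± 0.92), and the highest was DHX35 (6.75 ± 0.079), which was not called. Ribosome biogenesis genes had a median of 6.26 (25 genes), with 0 (0%) called higher and 12 (48%) lower. After BOP1, the lowest were the helicases DDX47 (5.15 ± 0.90) and DDX56 (5.20 ± 0.40), and UTP3 was the highest at 6.97 ± 0.37, not called. Members called were 7 lower without AZA 1 or AZA 3.

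Genes of ubiquitin-like conjugation and protein folding had a median of 6.01 (10 genes), with 6 (60%) lower and 1 (10%) higher. The lowest was the ubiquitin ligase HUWE1 (5.39 ± 0.56), followed by the ubiquitin-activating enzyme UBA1 (5.47 ± 0.88). UBE2N, the conjugating enzyme of lysine 63 chains, stood apart at 7.60, 7.47 and 7.67. Genes of DNA replication and histone deposition had a median of 6.42 (20 genes), with 8 (40%) lower and 2 (10%) higher. They ran from RPA1 to POLE3, a histone-fold subunit of DNA polymerase epsilon, at 7.28 ± 0.18. With AZA 1 omitted, 1 higher were called, with AZA 2 omitted, 0 higher were called, and with AZA 3 omitted, 1 higher were called. RPA3, the small subunit of RPA, had 6.44, 6.63 and 6.48 and was not called. Its hairpins ran from RPA3.125 with 158, 317 and 475 CPM to RPA3.56 with 11.9, 61.1 and 24.97 CPM.

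Genes of transcription by RNA polymerase II had a median of 6.52 (17 genes), with 7 (41.2%) lower and 3 (17.6%) higher. The elongation factors IWS1 (5.56 ± 0.34) and TCEA1 (7.72 ± 0.096) marked the ends. Removal of AZA 1 gave 1 higher and removal of AZA 2 gave 4 lower. Genes of mitosis and centromeres had a median of 6.76 (13 genes), with 3 (23.1%) lower and 2 (15.4%) higher, from the kinase AURKB (5.57 ± 0.59) to the cohesin acetyltransferase ESCO2 (7.30 ± 0.19). Leaving out AZA 1 gave 0 higher and leaving out AZA 3 gave 1 higher. Leukemia cofactors had a median of 6.36 (12 genes), with 6 (50%) lower and 1 (8.33%) higher. MYB and the MLL cofactor MEN1 (5.32 ± 0.67) were lowest, and AFF1, a subunit of elongation complexes, was highest at 7.23 ± 0.23. With AZA 1 omitted, 3 lower and 2 higher were called, with AZA 2 omitted, 0 higher were called, and with AZA 3 omitted, 0 higher were called.

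The chromatin complexes held calls on both sides, as did all genes together (21.6% higher and 24.6% lower). COMPASS, the complex of H3K4 methyltransferases, had a median of 6.13 (10 genes). Its calls were 6 (60%) lower and 4 (40%) higher. Members called were 2 higher without AZA 1 or AZA 3. HCFC1, the host cell factor subunit, was lowest with 5.52, 6.25 and 4.24, and DPY30, a small core subunit, was highest with 7.71, 7.34 and 7.90. SWI/SNF, the nucleosome remodeller, had a median of 6.60 (21 genes), with 7 (33.3%) lower and 5 (23.8%) higher. ARID1A was lowest with 5.74, 5.05 and 4.74, and BRD9, a bromodomain subunit, was highest with 7.56, 7.66 and 7.51. Removal of AZA 3 gave 2 higher. The ARID1A hairpins, whose guides are given above, ran from ARID1A.2704 with 165, 52.8 and 173 CPM to ARID1A.2176 with 13.8, 2.17 and 20.7 CPM, and 7 of 8 were below the median hairpin.

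The INO80, SRCAP and TIP60 complexes had a median of 6.54 (27 genes), with 8 (29.6%) lower and 3 (11.1%) higher. Their ends were RUVBL1 and MORF4L2 (7.82 ± 0.14). NuRD, which joins remodelling to histone deacetylation, had a median of 6.44 (11 genes), with 4 (36.4%) lower and 2 (18.2%) higher. It ran from the methyl-CpG-binding domain protein MBD3 (5.79 ± 0.44) to the deacetylase HDAC2 (7.56 ± 0.054). Leaving out AZA 1 gave 2 lower and 1 higher, leaving out AZA 2 gave 1 higher, and leaving out AZA 3 gave 1 lower and 1 higher. HP1 proteins and H3K9 methyltransferases had a median of 6.57 (10 genes), with 4 (40%) lower and 1 (10%) higher, from the corepressor TRIM28 (5.75 ± 0.50) to SUV39H1 (7.20 ± 0.28). With AZA 1 omitted, 2 lower and 0 higher were called, and with AZA 3 omitted, 1 lower and 0 higher were called.

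Polycomb repressive complex 2, which methylates H3K27, had a median of 6.69 (11 genes), with 2 (18.2%) lower and 1 (9.09%) higher. Its accessory subunits JARID2 (6.17 ± 0.25) and AEBP2 (7.13 ± 0.095) marked the ends. Removal of AZA 1 gave 0 lower and 0 higher, removal of AZA 2 gave 1 lower and 0 higher, and removal of AZA 3 gave 0 lower and 0 higher. Polycomb repressive complex 1, which ubiquitinates H2A, had a median of 6.66 (16 genes), with 5 (31.2%) lower and 3 (18.8%) higher. The related subunits PCGF2 (5.45 ± 0.28) and BMI1 (7.59 ± 0.021) marked the ends, and some BMI1 hairpins share their guide with hairpins of the readthrough gene COMMD3-BMI1.

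DNA methylation, DNA demethylation, RNA cytosine methyltransferases and nucleoside metabolism had list medians near or above the median gene under AZA. Their log2 differences from it were, in this order, -0.022, 0.24, 0.40 and -0.098. In the untreated libraries they were -0.53, 0.44, 0.62 and 0.011, and no difference between the groups was tested. DNA methylation genes had a median of 6.67 (7 genes), with 0 (0%) lower and 1 (14.3%) higher. DNMT1, the maintenance methyltransferase, had 6.64, 6.96 and 6.11 and was not called. Its hairpins ran from DNMT1.2837 with 131, 178 and 283 CPM to DNMT1.3210 with 65.3, 48.1 and 0 CPM. UHRF1, which brings DNMT1 to hemimethylated DNA, was the lowest member (6.33 ± 0.34, not called), and the methyltransferase DNMT3B was the highest with 7.50, 7.23 and 7.48. Leaving out AZA 2 gave 1 lower. DNA demethylation genes had a median of 6.93 (7 genes), with 0 (0%) lower and 1 (14.3%) higher, from TET3 (6.63 ± 0.52, not called) to GADD45A (7.24 ± 0.22). With AZA 1 omitted, 0 higher were called.

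RNA cytosine methyltransferases had a median of 7.09 (8 genes). Against the 21.6% and 24.6% of all genes, 5 (62.5%) were called higher and 1 (12.5%) lower. NSUN6, a tRNA methyltransferase, was the highest (7.25 ± 0.24), and the nucleolar NOP2, which is also in the ribosome biogenesis list, the lowest (6.08 ± 0.56). Removal of AZA 1 gave 0 lower and 2 higher, removal of AZA 2 gave 1 higher, and removal of AZA 3 gave 0 lower and 0 higher. With the germ cell reference, 0 were higher. Genes of nucleoside metabolism had a median of 6.59 (8 genes), with 1 (12.5%) lower and 0 (0%) higher, from the deaminase APOBEC3B (6.16 ± 0.28) to the cytidine deaminase CDA (7.06 ± 0.13, not called). Members called were 0 lower without AZA 2 or AZA 3.

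DNA damage response genes had a median of 6.99 (17 genes), with 7 (41.2%) higher and 1 (5.88%) lower, against 21.6% and 24.6% of all genes. Leaving out AZA 1 gave 4 higher and leaving out AZA 2 gave 2 lower. After TP53BP1, the highest were NBN (7.47 ± 0.24), BLM (7.40 ± 0.12) and ATM (7.35 ± 0.12), and the checkpoint kinase ATR was lowest at 5.71, 5.29 and 5.11. CBP, p300 and the BET proteins had a median of 7.01 (6 genes), with 3 (50%) higher and 0 (0%) lower. With AZA 1 omitted, 1 higher were called, and with AZA 2 omitted, 1 lower and 1 higher were called. They ran from BRD3 (6.32 ± 0.31, not called) to CREBBP. EP300, the paralog of CREBBP, had 6.88, 6.39 and 7.10 and was not called. Its highest hairpin, EP300.4860, had 539, 454 and 468 CPM.

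The N-terminal acetyltransferases held NAA15, its catalytic partner NAA10 (6.73, 6.97 and 6.87, not called) and NAA60 (6.63 ± 0.22, not called). Genes of germ cells and other tissues had a median of 6.83 (42 genes), with 9 (21.4%) higher and 4 (9.52%) lower, from SMYD1 to RAG2. Removal of AZA 3 gave 2 lower. The lists share some genes, and nothing is read from their order.

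Abundance moved with the base composition of the guide. Over the 1988 hairpins with a known guide, the number of G and C bases correlated with the hairpin value at -0.54 (Pearson, Spearman -0.56) and at -0.46, -0.44 and -0.46 in the single libraries. The median value went from 8.03 for 22 guides with 4 G or C bases, and 8.21 for 88 guides with 5, to 5.73 for 99 guides with 12. The slope was -0.34 on the log2 scale per G or C base, and -0.31 within genes. Over these hairpins, with the libraries averaged, the gene accounted for 20.9% of the variance, and for 16.6% after removal of guide GC content. In the untreated libraries the correlations were -0.43, -0.40 and -0.39.

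Over the 249 genes with 7 or more known guides, the mean guide GC content correlated with the gene value at -0.62. For all 912 genes, the GC content of the transcript correlated with the gene value at -0.47. Transcript GC content had a median of 42.8% in the 10 highest and 51.2% in the 10 lowest genes, against 47.3% in all. The known guides of ATXN7 averaged 28.4% GC, those of CHRAC1 29.5%, of CDK17 31.8% and of CREBBP 36.4%, against 39.3% over all known guides. Those of ARID1A averaged 43.8% and those of BOP1 50.6%.

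With the linear trend on transcript GC content taken out of each library, 127 genes were called higher and 168 lower, of which 101 and 144 had been called the same way before. The 10 highest and the 10 lowest genes were all still called. Transcript GC content correlated with mean guide GC content at 0.71, so its removal covers the trend on the guide in part only. Whether these calls hold with guide GC content removed was not tested. Among the 57 genes named by rule, MBD3, TRIM28, NOP2, AFF1, AEBP2, ESCO2 and NSUN6 lost their call and CDA gained one. Members named beside the ends of a list, such as NBN, BLM and ATM, are not covered by that account. Splicing then had 11 members called lower and ribosome biogenesis 10. COMPASS had 3 lower and 3 higher, and its median log2 difference from the median gene went from -0.56 to -0.15. NuRD had 2 lower, Polycomb repressive complex 1 had 3 and the HP1 and H3K9 methyltransferase list 1. The DNA damage response had 2 members called higher and 2 lower, and the mitosis list 0 higher. TP53BP1 was among these 2 called higher, so NBN, BLM and ATM were not all called higher there. The RNA cytosine methyltransferases had 1 higher, with a median log2 difference of 0.23, below those of the N-terminal acetyltransferases (0.40) and of CBP, p300 and the BET proteins (0.28). The median changed sign in NuRD (from -0.25 to 0.13), in mitosis and centromeres (from 0.071 to -0.17), in both Polycomb complexes and in DNA methylation. That of nucleoside metabolism went from -0.098 to -0.24.

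**Figure D3:**
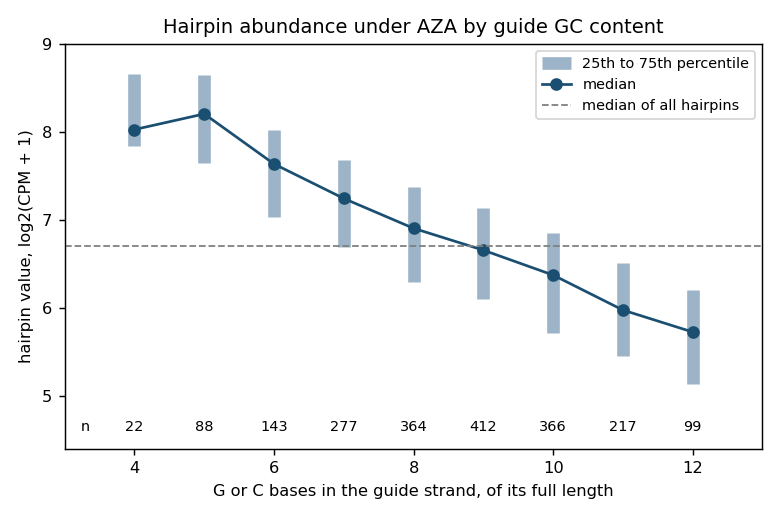
Hairpin values in log2(CPM + 1) by the number of G or C bases in the guide strand, for the hairpins with a known guide. Points are medians, bars span the 25th to 75th percentile, the numbers at the bottom count hairpins and the dashed line is the median hairpin at 6.70. The medians go from 8.03 at 4 bases to 5.73 at 12 bases.

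Guides with sites in 3′ UTRs had a median value of 7.07 (543 hairpins, median GC content 36.4%) and guides with coding sites 6.57 (1361 hairpins, 40.9%), so region and base composition went together. Nearly all guides, 1970 of 1988, began with T. A few hairpins had the same counts as another hairpin in all libraries: 23 sets of 56 hairpins, in 14 genes outside the Y chromosome. In the 13 sets whose guides are known, the guide was the same. Genes that share such hairpins are not independent. Without them 196 genes were called higher and 221 lower.

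The untreated samples, computed the same way, are given only as background, since they derive from the same transductions, and no difference between the groups was tested. Their median gene had 6.31. Hairpin values there had a total variance of 3.83, with 57.2% of it between libraries, against 1.75 and 42.4% under AZA. Untreated ranks carry that wider spread. Of the 10 highest genes under AZA, 8 were among the highest 100 of 904 without drug and 5 among the highest 10. CREBBP had 9.04, 9.29 and 9.14 there and ranked 1, and TP53BP1 had 8.05, 7.86 and 7.67 and ranked 8. NAA15 had 5.63, 6.20 and 6.40 and ranked 548, and RFWD2 had 6.80, 4.64 and 5.81 and ranked 671. All 10 lowest genes under AZA were among the lowest 100 of 904 without drug. RPA1 had 3.18, 4.50 and 5.09 there and MYB had 4.64, 4.19 and 5.53.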

How the data were processed

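Hairpins were counted in 3 AZA-treated SKK-1 samples, with 3 untreated ones as background. The authors amplified guide strands from genomic DNA by PCR, sequenced them and deposited raw counts per hairpin, 1 file per sample. Hairpins absent from a file were taken as 0. CASAVA 1.9 and GRCh37 appear in the submitters' processing notes, and the tool for assigning reads was not given in the sources used here. There are no molecular identifiers, so floors reflect counting error alone.

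Groups came from the sample titles. CPM used the file total. Gene values, centred on the median gene of each library, were tested against 0 with limma 3.58.1 (lmFit and eBayes). Hairpin counts were tested with edgeR 4.0.16 (R 4.3.3) with the log of the median hairpin count as offset. As that fit has 1 term, its quasi-likelihood F was computed by the formula of glmQLFTest, with the null model at the offset. P-values were adjusted by Benjamini-Hochberg (threshold 0.05), with no filter on low counts. They measure the spread between these 3 transductions. Both tests were checked on simulated data, where the hairpin test found moderate decreases far less often than increases. The simulated hairpins shared a dispersion, and the unchanged ones also a level. Real hairpin values had an SD of 1.12 and spread more between libraries when scarce, so the check is a rough guide only. Variance components, correlations and list counts carry no test. Libraries differed far beyond sampling noise, with a chi-square of 438 to 497 per degree of freedom. Guide sequences of 1987 hairpins come from the library's design, and the other ones from the study's list of single hairpins. They were matched whole to GENCODE 44 transcripts of the targeted gene for 1963 of 1990 hairpins.

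Named were the 10 highest and 10 lowest genes, MYB, RPA3, CREBBP, EP300, NAA15 and DNMT1, the ends of each list, the 5 highest, 5 lowest and 5 most variable hairpins, and hairpins of the 3 highest and 3 lowest genes. Other genes and hairpins were named after their values were seen. Genes on the Y chromosome are not named, and 1 gene that the rule takes is not reported here. Members, lists and tests were chosen with earlier results of these data known.

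Alternatives were a pseudocount of 10 CPM, a minimum of 10 counts in 2 libraries, the hairpins of all 6 files, leaving out each library, other gene summaries, centrings and tests, TMM scaling and counts thinned to the smallest library. Removal of shared guides and of the trend on transcript GC content, and the alternatives for guide GC content, were chosen after seeing the data.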

Additional observations from a re-analysis of the deposited data

How the results depend on the processing

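The 10 highest and 10 lowest genes kept direction and call in all 301 fits run on them. They were chosen as the extremes of the same libraries that these fits reuse, so this adds no support to the choice. Genes called higher were 122 with germ cell centring, 127 with the transcript GC trend removed and 126 to 157 with one library left out. Genes called lower were 156 to 189 with one library left out. For hairpins, limma gave 504 higher and 333 lower, and edgeR with one library left out 1139 to 1271 higher and 0 lower. With one library left out, splicing genes called lower were 9 to 13, ribosome biogenesis genes 7 to 13, and DNA damage response genes called higher 4 to 6, or 2 with the GC trend removed. Of 644 list counts under alternatives, 514 were within 1.5 times the reported count.

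The share of hairpin variance between genes was 17.8% with a pseudocount of 10 CPM, 18.0% with the count minimum and 15.17 to 16.01% with one library left out. The mean correlation between libraries was 0.79 for genes and 0.61 for hairpins with that pseudocount, 0.56 for hairpins with the count minimum, and 0.76 to 0.78 and 0.57 to 0.58 with one library left out. That of guide GC content with hairpin value was -0.57 with the pseudocount and -0.52 to -0.51 with one library left out. Genes with 7 or more hairpins above the median hairpin were then 87 to 90, and below it 81 to 98.

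Of 856 fits over 57 named genes, 791 kept direction and call, 34 lost the call, 12 gained one and 19 changed sign. PCGF2 lost its call by edgeR on gene sums and with summed CPM. JARID2, POLE3, GADD45A, SUV39H1 and APOBEC3B lost theirs in fits with one library left out. SUV39H1 also lost it with germ cell centring, and APOBEC3B with medians over hairpins. NOP2, AFF1, AEBP2, ESCO2 and NSUN6 lost theirs with the GC trend removed and in other settings. Of genes given as not called, EP300, UTP3 and CDA were called higher by edgeR on gene sums, CDA also in 3 other settings, RPA3 lower with medians over hairpins, UHRF1 lower in 3 settings and BRD3 lower in 2. The changes of sign were in 6 genes, given as log2 differences from the median gene. EP300 had -0.039 with germ cell centring, -0.16 with medians over hairpins, -0.045 without the extreme hairpins and -0.061 to 0.29 with one library left out. DNMT1 had 0.14 with medians, 0.076 with the GC trend removed, 0.12 without the extreme hairpins and -0.32 to 0.11 with one library left out. NAA60 had 0.28 and TET3 0.081 with the GC trend removed, and -0.14 to 0.076 and -0.31 to 0.18 with one library left out. DHX35 had -0.12 by edgeR on gene sums, -0.078 with germ cell centring, -0.058 with medians, -0.13 with summed CPM and -0.0037 without the extreme hairpins. APOBEC3B, called lower, had 0.24 by edgeR on gene sums and 0.23 with summed CPM, not called in either. The causes were not tested. No paired analysis was possible because every test here holds the AZA libraries alone. A contrast with the untreated libraries, which their shared transductions would pair, was not run.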
